A study of Mus musculus with 51 samples.

Results

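The UGT2 glucuronosyltransferases are described here as 8 genes, Ugt2a3, Ugt2b1, Ugt2b5, Ugt2b34, Ugt2b35, Ugt2b36, Ugt2b37 and Ugt2b38. They were chosen by name from an expression matrix of 33773 mouse genes, and all 8 had a row. The matrix also holds Ugt2a1, which is not among the 8 and had group means of at most 0.0639 RPKM. The values were RPKM, which scale reads for transcript length and library depth. Of the values above 0, 2.9% were under 1e-06, so they are estimates and not plain scaled counts. Comparisons between near-identical copies also rest on how shared reads were divided, which the sources used here do not state.

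The study removed FoxA transcription factors from mouse liver and measured RNA in 21 libraries from 6 groups. In 15 libraries the RNA came from hepatocytes. The FoxA triple null group (4 libraries) carried FoxA1 L/L; FoxA2 L/L; FoxA3-/-, and at the age of 8 weeks had received AAV8 with Cre under the hepatocyte-specific Tbg promoter. The FoxA3 null group (4 libraries) carried the same alleles and received a GFP virus, so FoxA3 was absent from both groups. In the FoxA1/A2 lox group (3 libraries) Foxa1 and Foxa2 were floxed and not deleted, and in the FoxA1/A2 Cre alfp group (4 libraries) both were deleted by an alfp-driven Cre. FoxA3 was present in those 2 groups. Among the hepatocyte groups the age at deletion is given only for the triple null, so it is not known for Cre alfp. Another 6 libraries came from whole liver, 2 labelled HNF4a control and 4 labelled HNF4a null. The latter are described as depleted of HNF4a in adults. The sources do not say that libraries of a group came from separate animals, so p-values measure the spread between these libraries, which may be technical.

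UDP-glucuronosyltransferases are membrane enzymes of the endoplasmic reticulum that transfer glucuronic acid from UDP-glucuronic acid to steroids, bile acids, fatty acids and drugs. The conjugates dissolve in water and leave the hepatocyte through transporters into bile or blood. The UGT2 genes lie in a tandem cluster, and the proteins of neighbouring copies overlap in the substrates they accept. FoxA proteins open chromatin at liver genes, and HNF4a is a nuclear receptor that maintains hepatocyte gene expression.

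The groups were checked first. Foxa3 was at most 0.0114 RPKM where FoxA3 was deleted (FoxA3 null and triple null) and 19.0 to 34.5 RPKM in hepatocytes that kept it (lox and Cre alfp). Foxa2 was 0.243 to 0.470 RPKM in triple null and 11.1 to 20.6 in FoxA3 null, and 0.991 to 1.26 in Cre alfp against 6.84 to 19.2 in lox. Foxa1 kept more of its RNA: it was 3.04 to 3.63 RPKM in triple null and 6.14 to 10.1 in FoxA3 null, and 1.14 to 1.34 in Cre alfp against 4.71 to 8.21 in lox. Hnf4a went against its label: it was 524 ± 27.3 RPKM (SD, n = 4) in the libraries labelled HNF4a null and 122 ± 5.38 (n = 2) in control liver, so every direction from these livers belongs to the labels. The relative depth of the 21 libraries, read from the smallest steps of the RPKM values, ranged from 1 to 4.06. The absolute depth is unknown, and the liver libraries were the shallowest. Hepatocyte markers (8 genes) summed to 17886 to 22899 RPKM in triple null and 44025 to 48369 in FoxA3 null, and neutrophil markers (5 genes) to 9.16 to 111 against 0.720 to 1.73. Of the 8 hepatocyte markers, 5 were called lower and 1 higher in triple null against FoxA3 null, where 3.95% and 4.17% of all genes were. Not all of them thus followed their sum. In the livers labelled HNF4a null, cholangiocyte markers (7 genes) summed to 108 to 206 RPKM against 14.7 and 15.0 in control. The sum of hepatocyte markers was lower there too, at 14079 to 15500 RPKM against 27750 and 27995, and in Cre alfp they summed to 35414 to 43275 RPKM against 46228 to 51621 in lox. Of these 8 genes, 5 were called lower and 1 higher in the livers labelled HNF4a null, where 14.5% of all genes were called in either direction. In Cre alfp against lox 0 of 8 were called, where 2.38% of all genes were. Neutrophil markers were 2.98 to 14.1 RPKM in the livers labelled HNF4a null against 0.688 and 1.79. Sinusoidal endothelial markers (7 genes) were 5.11 to 9.32 RPKM in triple null against 13.6 to 28.7 in FoxA3 null. Erythroid markers (6 genes) summed to 8.06 to 29.7 RPKM against 34.0 to 48.1. Of 4 erythroid markers tested there, 3 were called higher and 1 lower, so most went against the direction of the sum. The erythroid sum was 81.7 to 90.9 RPKM in lox, above both FoxA3 null and Cre alfp (15.9 to 29.4). In lox only 1 of these 6 genes had a mean of 1 RPKM or more. Of 4 tested, 1 was called higher and 1 lower in Cre alfp against lox, and 0 higher and 1 lower in FoxA3 null against lox. In the livers labelled HNF4a null, the sums of sinusoidal endothelial, stellate and lymphocyte markers were also above control, without overlap. With 2 controls, 67.0% of all genes had groups that did not overlap, and none of these markers was called. Their median differences relative to all genes were -0.22, 0.03 and 0.19, the last from 1 gene. The part of these shifts in the UGT2 results was not tested, and in such samples fewer hepatocytes and less RNA per hepatocyte cannot be told apart.

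Along chromosome 5 the RefSeq annotation (GRCm38.p6) orders the genes Ugt2b34, Ugt2b1, Ugt2b35, Ugt2b36, Ugt2b5, Ugt2b37, Ugt2a3 and Ugt2b38. Ugt2b35 is on the plus strand and the other 7 are on the minus strand. The matrix was made on the mm9 build, so this annotation was used for gene order and promoter sequence only. Between the outermost members the annotation also lists 12 pseudogenes, none of them in the matrix, to which reads of the active copies could align.

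The 250 bases before the annotated start are shown for the 4 genes on which the results turn. Ugt2b1 was nearly lost in the triple null, Ugt2b37 and Ugt2b38 rose there, and Ugt2b5 is the abundant gene whose promoter is most like theirs. Each reads 5′ to 3′ on the gene's strand. Capitals mark a FoxA core motif, TATTTAC in Ugt2b1 and TGTTTAC, read on the opposite strand as GTAAACA, in Ugt2b37 and Ugt2b38. In Ugt2b5 the capitals mark the bases aligned to that core. The windows are chr5:86926504-86926753 for Ugt2b1, chr5:87254789-87255038 for Ugt2b37, chr5:87424204-87424453 for Ugt2b38 and chr5:87140341-87140590 for Ugt2b5, all on the minus strand.
Ugt2b1: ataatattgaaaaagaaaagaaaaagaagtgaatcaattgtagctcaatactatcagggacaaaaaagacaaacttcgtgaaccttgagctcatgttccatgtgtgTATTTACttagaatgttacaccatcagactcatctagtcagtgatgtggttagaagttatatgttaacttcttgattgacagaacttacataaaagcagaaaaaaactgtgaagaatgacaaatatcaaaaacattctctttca
Ugt2b37: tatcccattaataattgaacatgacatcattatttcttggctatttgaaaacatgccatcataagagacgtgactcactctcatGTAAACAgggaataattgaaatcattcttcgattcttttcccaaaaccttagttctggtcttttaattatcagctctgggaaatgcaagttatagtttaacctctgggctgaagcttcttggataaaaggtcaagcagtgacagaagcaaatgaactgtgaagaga
Ugt2b38: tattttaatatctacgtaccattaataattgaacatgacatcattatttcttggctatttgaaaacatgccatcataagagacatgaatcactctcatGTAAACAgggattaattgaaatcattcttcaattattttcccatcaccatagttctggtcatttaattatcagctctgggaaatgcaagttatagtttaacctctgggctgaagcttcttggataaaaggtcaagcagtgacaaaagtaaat
Ugt2b5: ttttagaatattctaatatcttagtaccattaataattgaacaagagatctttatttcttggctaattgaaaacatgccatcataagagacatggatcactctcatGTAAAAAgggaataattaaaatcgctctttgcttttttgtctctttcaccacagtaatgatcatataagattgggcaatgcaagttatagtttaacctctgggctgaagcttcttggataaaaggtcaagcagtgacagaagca

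Over 300 bases, with 50 bases after the start included, the Ugt2b37 and Ugt2b38 promoters were identical at 86.9% of aligned positions. Ugt2b5 was identical to Ugt2b38 at 84.2% and to Ugt2b37 at 76.2%. The Ugt2b36 promoter shared 60.7% to 62.2% with these 3. Counted from 1 at the first base of GTAAACA in Ugt2b38, the aligned stretch of Ugt2b5 differs by C6A, and that of Ugt2b37 does not differ. Ugt2b1 has its TATTTAC 144 bases before the start. The core lies 166 bases before the start in Ugt2b37 and 152 in Ugt2b38, counted to the first base on the gene's strand.

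Both strands of 32851 RefSeq promoters of this length were searched. TGTTTAC was in 3.65% of them and, among the 8 members, in Ugt2b35, Ugt2b37 and Ugt2b38. TATTTAC was in 3.04% and, among the members, in Ugt2b1. The HNF4 core CAAAGTCCA was in 0.475% of promoters and in none of the 8 windows. These are matches of letters, not measured binding sites. The FoxA cores stand in genes that rose and in genes that fell in the triple null, as the values show.

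In hepatocytes with Foxa1 and Foxa2 intact and FoxA3 present (lox), the cluster was led by Ugt2b5 and Ugt2b36. Ugt2b5 was 475, 540 and 402 RPKM and Ugt2b36 was 334, 375 and 371 RPKM. Ugt2b1 followed at 248, 264 and 180 RPKM, and Ugt2b34 at 147, 140 and 132. Together these 4 genes made up most of the summed UGT2 signal of 1360 ± 119 RPKM (SD, n = 3): 34.6% for Ugt2b5, 26.6% for Ugt2b36, 16.9% for Ugt2b1 and 10.3% for Ugt2b34.

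The rest of the lox cluster was less abundant and more variable. Ugt2a3 was 64.3, 68.5 and 121 RPKM and Ugt2b35 was 59.2, 74.0 and 45.6. Ugt2b38 was 9.10, 21.1 and 2.80 RPKM and Ugt2b37 was 2.32, 6.02 and 0.487. Ugt2b37 and Ugt2b38 were highest in the same library and lowest in the same library, and the spread of each was close to its mean.

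**Figure D1:**
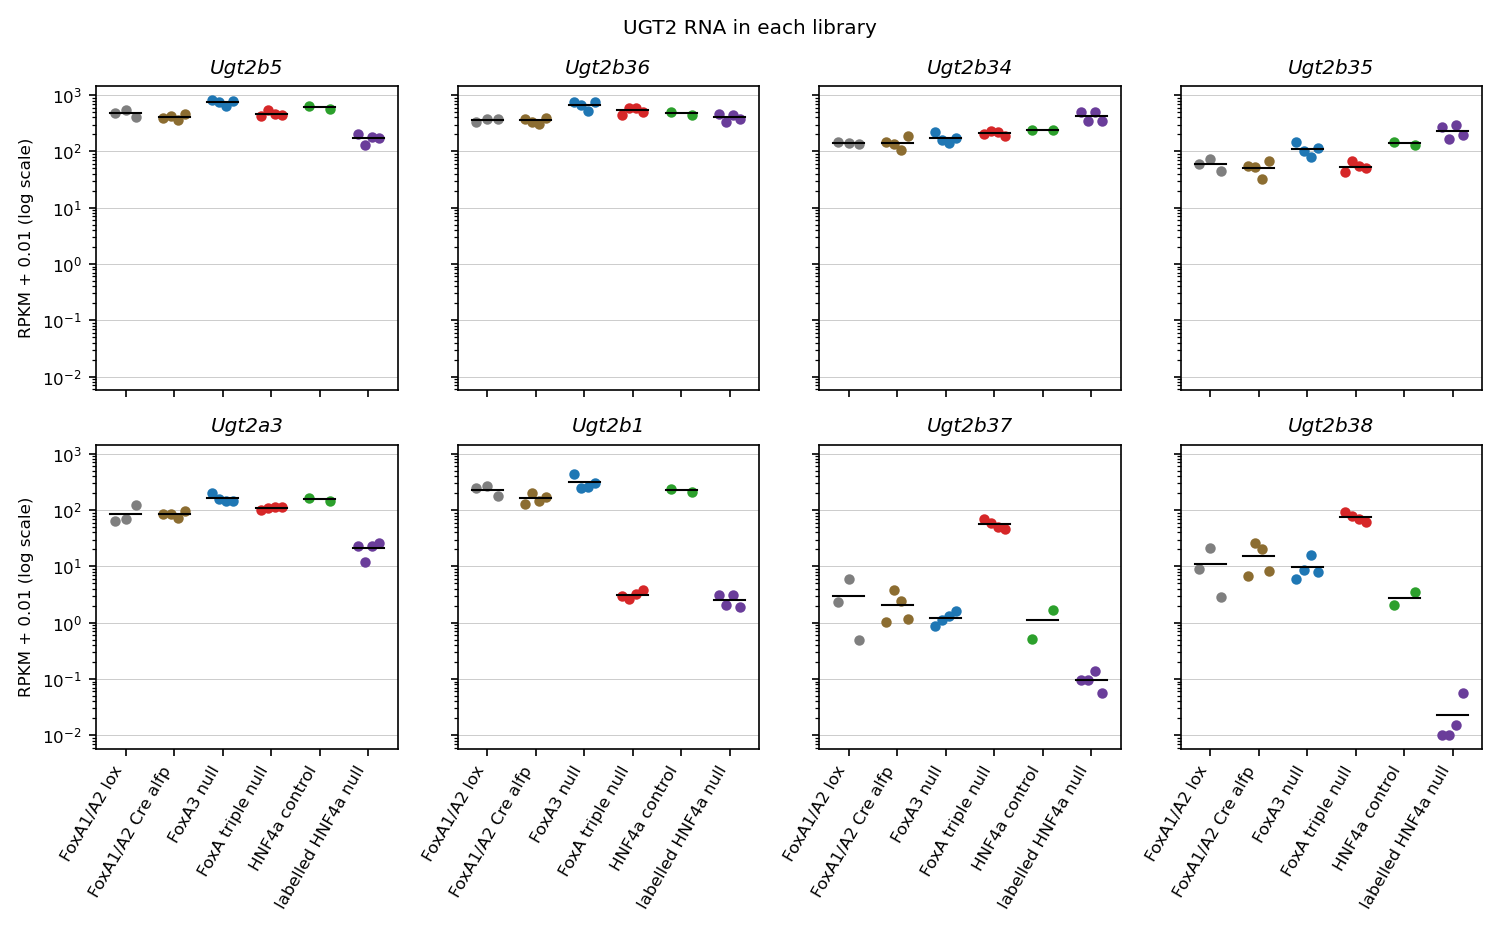
RPKM plus 0.01, on a log scale, of each UGT2 gene in each library, by group; a point is a library and a bar is the group mean. Ugt2b1 sat between 2.66 and 3.75 in the triple null libraries and between 1.92 and 3.11 in the livers labelled HNF4a null, and Ugt2b37 and Ugt2b38 were highest in the triple null.

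Loss of Foxa1 and Foxa2 from FoxA3-deficient hepatocytes moved UGT2 genes in opposite directions. Ugt2b1 fell to about 1% of its level, Ugt2b37 and Ugt2b38 rose from low levels to the range of Ugt2b35 and Ugt2a3, and the other 5 genes differed by at most 1.02 in either direction on the log2 scale. A gene was called where limma gave an adjusted p under 0.05 (Benjamini-Hochberg over all genes tested) and a difference of at least 1 in log2(RPKM + 1). By this rule 4 of 8 UGT2 genes were called, against 8.11% of all genes tested. Of these 2 were higher and 2 lower, against 4.17% and 3.95% of all genes. The median difference was -0.44 over the 8 genes and 0.05 over all genes.

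With FoxA3 alone missing, Ugt2b1 stood at 431, 246, 259 and 301 RPKM, and in the triple null at 2.92, 2.66, 3.25 and 3.75. The groups were far apart and the 4 triple null libraries were close to each other. The mean fell from 309 ± 84.4 to 3.14 ± 0.469 RPKM (SD, n = 4 each), a 98.3-fold lower level that left 1.02% ± 0.152. This was a difference of -6.20 in log2(RPKM + 1), with an SE of 0.19 (limma adjusted p = 1.65e-11). Its share of the summed UGT2 signal went from 14.0% to 0.211%.

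Ugt2b37 was 0.853, 1.12, 1.31 and 1.62 RPKM in FoxA3 null and 70.0, 57.9, 50.1 and 46.7 in triple null. The lowest triple null library was far above the highest FoxA3 null library. The mean rose 45.8-fold, from 1.23 ± 0.321 to 56.2 ± 10.3 RPKM, or by 4.68 in log2(RPKM + 1), with an SE of 0.38 (limma adjusted p = 5.19e-07).

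Ugt2b38 was 6.05, 8.67, 16.1 and 7.99 RPKM in FoxA3 null and 94.3, 79.2, 70.1 and 60.2 in triple null, again without overlap. The mean rose 7.82-fold, from 9.71 ± 4.42 to 75.9 ± 14.5 RPKM, or by 2.91 on the log2 scale, with an SE of 0.49 (limma adjusted p = 0.000513). The 4 triple null libraries stood in the same order for both genes. With any 1 library left out, the log2 difference stayed between -6.29 and -6.03 for Ugt2b1, 4.57 and 4.76 for Ugt2b37, and 2.73 and 3.16 for Ugt2b38.

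Reads shared between near-identical copies could tie these values together, and the counting of such reads is not given in the sources used here. The ratio of Ugt2b37 to Ugt2b38 was 0.715 to 0.776 in triple null and 0.0813 to 0.202 in FoxA3 null, 0.121 to 0.149 in Cre alfp and 0.174 to 0.285 in lox. In control liver the ratio was 0.245 and 0.493. In the livers labelled HNF4a null, Ugt2b38 was 0.0455 RPKM or less and Ugt2b5 was 130 to 204 RPKM. The part of shared reads in these values was not tested.

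Ugt2b35 was the other gene called. It was 149, 102, 78.1 and 116 RPKM in FoxA3 null and 42.1, 66.6, 55.0 and 51.1 in triple null, which did not overlap. It fell by 1.02 on the log2 scale, with an SE of 0.24 (limma adjusted p = 0.00545), just past the size limit. Without FoxA3 null library 1 it was -0.87, without FoxA3 null library 4 it was -0.99 and without triple null library 1 it was -0.91, so these 3 libraries each decide the call.

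The most abundant genes differed less. Ugt2b5 was 823, 748, 639 and 785 RPKM in FoxA3 null and 418, 533, 461 and 441 in triple null, without overlap. Its difference of -0.69, with an SE of 0.13 (limma adjusted p = 0.000925) was under the size limit, as was that of Ugt2a3 at -0.56 (SE 0.18, limma adjusted p = 0.0272). Ugt2a3 was 198, 160, 143 and 145 RPKM in FoxA3 null and 99.4, 111, 112 and 112 in triple null, also without overlap.

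Ugt2b36 and Ugt2b34 did not pass the test on either count. Ugt2b36 was 677 ± 107 RPKM in FoxA3 null and 537 ± 75.5 in triple null, a log2 difference of -0.33 with a 95% interval of -0.62 to -0.03 (limma adjusted p = 0.0872). Ugt2b34 was 173 ± 34.0 and 211 ± 18.7 RPKM, a difference of 0.30 with an interval of -0.04 to 0.65 (limma adjusted p = 0.172). In both genes the groups overlapped, and in all 6 of the 8 UGT2 genes had groups that did not overlap, against 27.9% of all genes tested.

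In the authors' deposited table of the same comparison, 4 UGT2 genes were lower and 2 higher at an adjusted p under 0.05, against 22.1% and 20.6% of its genes. That deposited table gave log2 fold changes of -6.59 for Ugt2b1, 5.46 for Ugt2b37, 2.91 for Ugt2b38 and -1.08 for Ugt2b35.

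**Figure D2:**
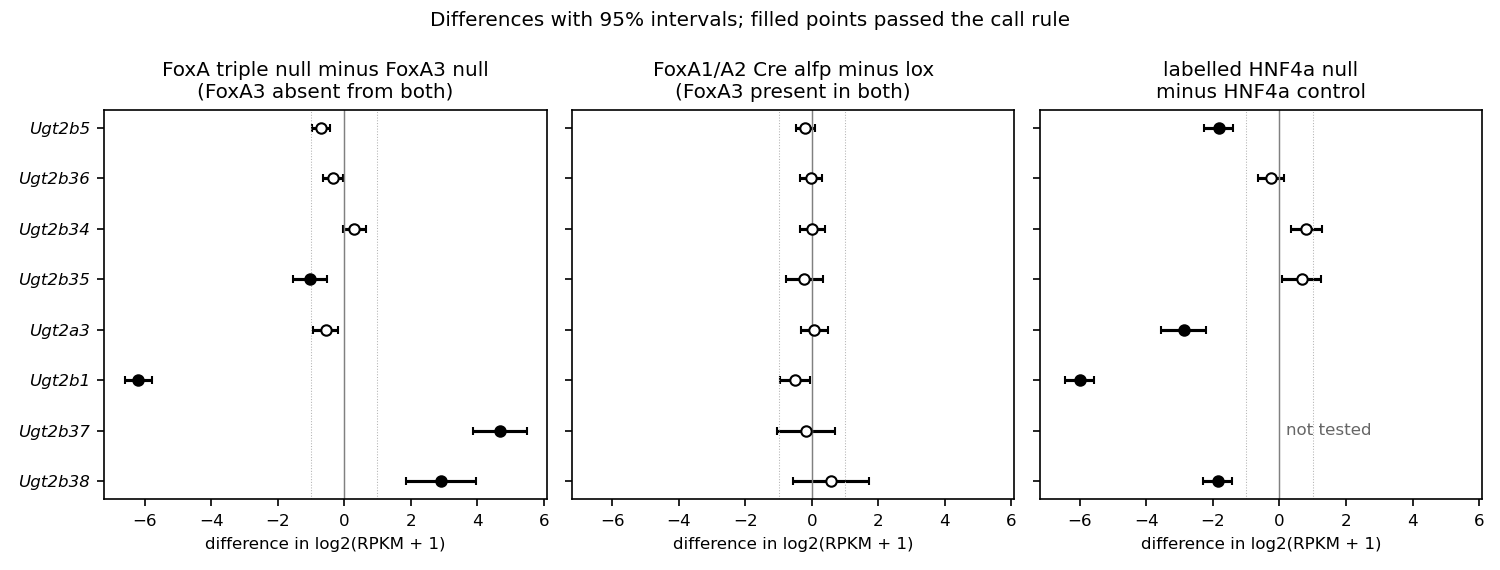
Difference in log2(RPKM + 1) for each UGT2 gene in 3 comparisons, with 95% intervals from limma; filled points passed the call rule and dotted lines mark the size limit of 1. Ugt2b1, Ugt2b35, Ugt2b37 and Ugt2b38 were called in the triple null and none in the Cre alfp comparison.

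With FoxA3 present, deletion of Foxa1 and Foxa2 gave no called UGT2 gene. In Cre alfp against lox, limma called 0 of 8 members against 2.38% of all genes, 1 member (Ugt2b1) had an unadjusted p under 0.05, and none had groups that did not overlap (19.9% of all genes). The authors' own table for this comparison was not analysed here.

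Ugt2b1 was 130, 202, 144 and 174 RPKM in Cre alfp against 248, 264 and 180 in lox, with overlap. It differed by -0.50 on the log2 scale, with a 95% interval of -0.94 to -0.06 (limma adjusted p = 0.198). Ugt2b38 was 6.81, 25.5, 20.1 and 8.11 RPKM in Cre alfp, within the span of lox except for 1 library, with a difference of 0.58 (interval -0.56 to 1.71). Ugt2b37 was 1.01, 3.76, 2.43 and 1.16 RPKM, inside the lox range, with a difference of -0.17 (interval -1.04 to 0.70). The intervals of these low genes are wide and include changes past the size limit. Those of Ugt2b5 (-0.48 to 0.10), Ugt2b34 (-0.37 to 0.38), Ugt2b36 (-0.34 to 0.30) and Ugt2a3 (-0.33 to 0.48) do not.

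The effect of the deletion itself was compared between the FoxA3-deficient and the FoxA3-bearing pair of groups with an interaction term, under which 3 of 8 members were called against 6.82% of all genes. Ugt2b1 fell further without FoxA3, by 5.69 on the log2 scale (SE 0.28, limma adjusted p = 9.76e-09). Ugt2b37 rose further, by 4.84 (SE 0.55, limma adjusted p = 5.91e-05). Ugt2b38 had a term of 2.33 (SE 0.72, limma adjusted p = 0.0448), and its adjusted p ranged from 0.00757 to 0.118 over the alternatives. The call for Ugt2b38 was lost in 5 of 7 other settings and in 11 of 15 fits that left out 1 library. Terms for the remaining 5 genes did not pass, including Ugt2b35 at -0.79 (limma adjusted p = 0.146). FoxA3 status, the route of Cre delivery and any difference in age at deletion cannot be told apart in this term.

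The triple null was also set against both FoxA3-bearing groups, which shared the triple null libraries. The median of all genes moved by 0.13 against lox and 0.13 against Cre alfp, and differences are given relative to that shift, while the tests and the size limit apply to the unshifted differences. Ugt2b1 fell by 5.92 against lox and by 5.41 against Cre alfp. Ugt2b37 rose by 3.98 and 4.16, and Ugt2b38 by 2.87 and 2.30. These 3 genes were called in each comparison, against 13.5% and 10.3% of all genes. The limma adjusted p ranged from 4.69e-11 for Ugt2b1 to 0.000498 for Ugt2b38 against lox, and from 5.41e-11 to 0.00144 against Cre alfp.

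Ugt2b34 and Ugt2b36 were higher in triple null than in either FoxA3-bearing group at an adjusted p under 0.05, and under the size limit. Ugt2a3 did not pass, with unshifted differences of 0.41 from lox and 0.34 from Cre alfp (limma adjusted p = 0.095 and 0.138). The unshifted differences of Ugt2b34 were 0.59 from lox and 0.58 from Cre alfp (limma adjusted p = 0.0148 and 0.0109), or 0.46 from each relative to all genes. Those of Ugt2b36 were 0.57 and 0.59 (limma adjusted p = 0.00746 and 0.00383), or 0.44 and 0.47 relative to all genes. The authors' deposited tables gave log2 fold changes of 0.37 and 0.34 for Ugt2b34 (adjusted p = 0.00376 and 0.0816) and of 0.29 and 0.33 for Ugt2b36 (adjusted p = 0.036 and 0.0137), against the undeleted control and Cre alfp in turn, the p for Cre alfp being adjusted here by Benjamini-Hochberg.

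The triple null levels of Ugt2b5 and Ugt2b35 overlapped those of both FoxA3-bearing groups. Ugt2b5 differed from lox by -0.02 (95% interval -0.31 to 0.27, before the shift) and Ugt2b35 by -0.14 (interval -0.69 to 0.41). So the lower Ugt2b35 and Ugt2b5 of the triple null were seen against FoxA3 null libraries and not against lox, where the limma adjusted p was 0.693 and 0.904.

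Between FoxA3 null and lox libraries no UGT2 gene passed the call rule, and 4 had higher means without overlap. Ugt2b36 was 1.88-fold higher, Ugt2a3 1.91-fold, Ugt2b35 1.87-fold and Ugt2b5 1.59-fold, and in these 4 of 8 genes the groups did not overlap, as in 40.1% of all genes. Ugt2b37 and Ugt2b38 had lower means in FoxA3 null (1.23 and 9.71 RPKM against 2.94 and 11.0 in lox), with overlap, though the log2 difference of Ugt2b38 was 0.10. The median of all genes moved by 0.10, and relative to it the differences of these 4 were 0.79, 0.87, 0.78 and 0.56. Unshifted they were 0.90, 0.97, 0.88 and 0.67 (limma adjusted p = 0.000974, 0.00251, 0.0184 and 0.00309). Each was under the size limit, so 0 of 8 members were called against 7.19% of all genes, while these 4 had an unadjusted p under 0.05. At an adjusted p under 0.05 alone there were 4 of 8 members against 34.8% of all genes. Leaving out 1 library moved the count of called members between 0 and 3. Without lox library 2 it was Ugt2b35 (higher), without lox library 3 Ugt2a3 (higher) and Ugt2b37 (lower, -1.13), without FoxA3 null library 3 Ugt2a3, Ugt2b35 and Ugt2b36 (all higher), and without FoxA3 null library 4 Ugt2a3 (higher). FoxA3 status cannot be told apart here from other differences between these groups, such as the GFP virus.

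**Figure D3:**
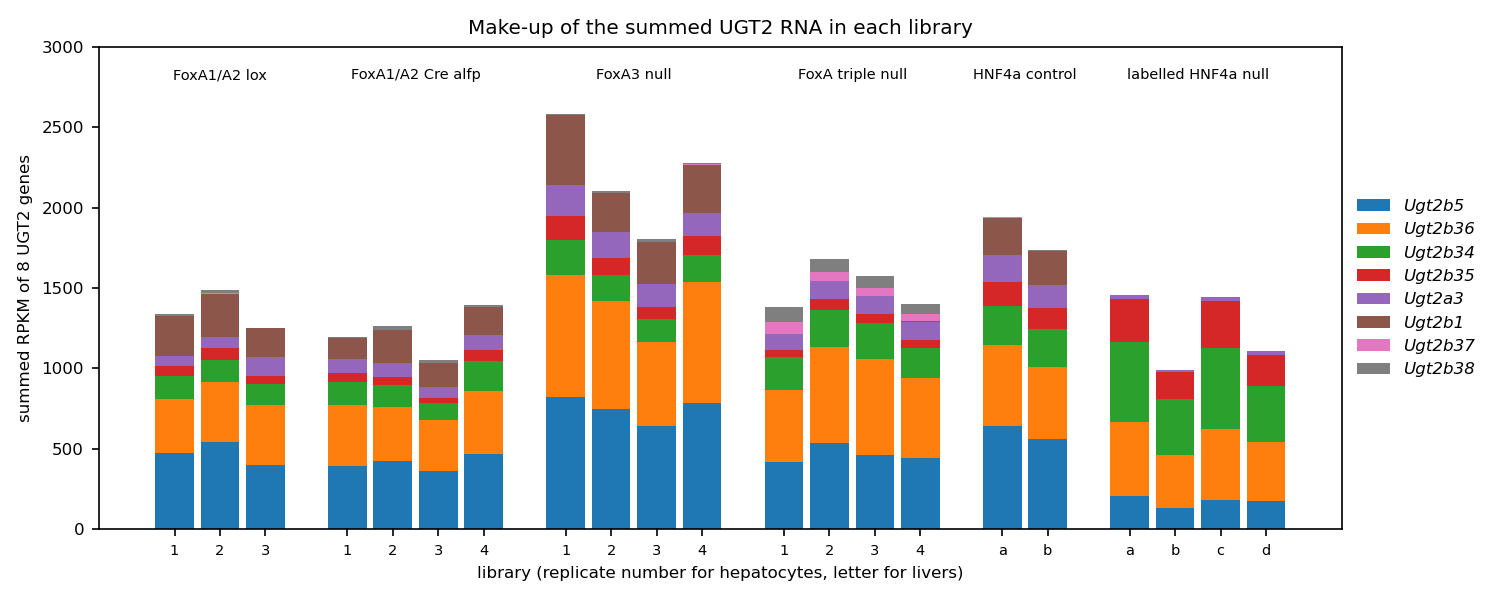
Summed RPKM of the 8 UGT2 genes in each library, stacked by gene; hepatocyte libraries carry their replicate number and liver libraries a letter. Ugt2b1 is a broad band in 13 libraries and too thin to see in the 4 triple null libraries and the 4 livers labelled HNF4a null.

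The summed UGT2 signal was 1360 ± 119 RPKM in lox, 1227 ± 142 in Cre alfp, 2191 ± 326 in FoxA3 null and 1509 ± 143 in triple null. In triple null Ugt2b36 was first with 35.5%, Ugt2b5 second with 30.7%, followed by Ugt2b34 with 14.0%. Ugt2b38 held 5.07% and Ugt2b37 3.76%, against 0.473% and 0.0576% in FoxA3 null.

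HNF4a depletion, as labelled, went with lower levels of much of the cluster: 4 of the 7 testable UGT2 genes were called lower and none was called higher, against 5.95% of all genes called lower and 14.5% called in either direction. The fall reached Ugt2b1, Ugt2a3, Ugt2b5 and Ugt2b38, while Ugt2b34 and Ugt2b35 had higher means than control. The median of all genes moved by 0.34, so differences are given relative to it beside the unshifted ones, to which the limma p-values, the SE and the size limit apply. The median of the 7 genes was -2.16 relative to all genes and -1.82 unshifted. Groups did not overlap for 7 of 8 members, but with 2 controls the same held for 67.0% of all genes.

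Ugt2b1 was 236 and 212 RPKM in control liver and 3.11, 2.01, 3.09 and 1.92 in the livers labelled null. It fell by 6.35 relative to all genes and by 6.01 unshifted (SE 0.18, limma adjusted p = 2.5e-06), and 1.13% ± 0.293 of the control level remained. The remaining levels overlapped, 2.66 to 3.75 RPKM in triple null hepatocytes and 1.92 to 3.11 in these livers, although the tissues differ.

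Ugt2a3 was 165 and 144 RPKM in control and 22.6, 12.1, 23.3 and 25.9 in the livers labelled null. It fell by 3.21 relative to all genes and by 2.87 unshifted (SE 0.29, limma adjusted p = 0.000395). Ugt2b5 was 641 and 563 RPKM in control and 204, 130, 180 and 172 in the livers labelled null, and fell by 2.16 relative to all genes and by 1.82 unshifted (SE 0.18, limma adjusted p = 0.000397). Both genes were clear of the control range in all 4 libraries.

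Ugt2b38 was 2.02 and 3.44 RPKM in control. In the livers labelled null it was listed at 0 in 2 libraries and at 0.00509 and 0.0455 in the others. On the log2(RPKM + 1) scale it fell by 2.19 relative to all genes and by 1.86 unshifted (SE 0.18, limma adjusted p = 0.000376), which understates the change of so low a gene. Without either control library it could no longer be tested, since the filter asked for 1 RPKM in 2 libraries. Ugt2b37 was 0.495 and 1.70 RPKM in control and 0.0875, 0.0867, 0.127 and 0.0455 in the livers labelled null, and it did not pass the filter. Ugt2b37 and Ugt2b38, which rose in the triple null, were thus at their lowest in these livers.

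Ugt2b34 was 243 and 236 RPKM in control and 498, 351, 506 and 346 in the livers labelled null, without overlap. Its unshifted difference of 0.80 (SE 0.19, limma adjusted p = 0.0137) was under the size limit, and relative to all genes it was 0.46. Ugt2b35 was 150 and 132 RPKM in control and 271, 166, 291 and 192 in the livers labelled null, with an unshifted difference of 0.67 (SE 0.24, limma adjusted p = 0.0541), or 0.33 relative to all genes. Ugt2b36 was 474 ± 41.3 and 401 ± 61.5 RPKM with overlapping groups, an unshifted difference of -0.25 (SE 0.16, limma adjusted p = 0.222), or -0.59 relative to all genes. With libraries scaled to 1 median, Ugt2b34 differed by 0.49 (limma adjusted p = 0.112) and Ugt2b36 by -0.57 (limma adjusted p = 0.0397), so the scaling decides which of these passes an adjusted p of 0.05. Shares of the smaller UGT2 sum went from 13.1% to 33.9% for Ugt2b34, from 7.66% to 18.2% for Ugt2b35 and from 25.8% to 32.2% for Ugt2b36. That of Ugt2b5 went from 32.7% to 13.8%. The sum was 1839 ± 145 RPKM in control and 1251 ± 238 in the livers labelled null.

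In the authors' deposited table of this comparison 6 members were lower and 1 higher at an adjusted p under 0.05, against 24.9% and 21.4% of its genes. That deposited table gave Ugt2b36 a log2 fold change of -0.73 (adjusted p = 3.68e-05) and Ugt2b37 one of -3.88 (adjusted p = 3.27e-08), neither of which was called here. It gave Ugt2b34 a change of 0.41 (adjusted p = 0.0449).

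Adjacent genes of the cluster moved in different directions. Ugt2b37 and Ugt2b38, which rose in the triple null, flank Ugt2a3, which had a difference of -0.56, and Ugt2b1 lies between Ugt2b34 and Ugt2b35. Beyond the cluster lie 3 sulfotransferase genes, named here after their values were seen, whose enzymes attach sulfate to steroids and phenols. In triple null against FoxA3 null Sult1b1 fell by 1.90, Sult1d1 rose by 2.76 and Sult1e1, the oestrogen sulfotransferase, rose by 7.75 on the log2 scale (limma adjusted p = 1.19e-06, 8.84e-08 and 9.48e-10).

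Sult1e1 was 4.29 ± 1.70 RPKM in FoxA3 null and 1123 ± 281 in triple null. Unlike the UGT2 genes it was also called in Cre alfp against lox, rising by 3.76 (limma adjusted p = 3.39e-05). In the livers labelled HNF4a null Sult1b1 fell by 4.19 relative to all genes, while Sult1d1 rose by 1.29 and Sult1e1 by 3.20. On the other side of the cluster Ythdc1, an RNA-binding protein gene, was not called in either comparison.

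**Figure D4:**
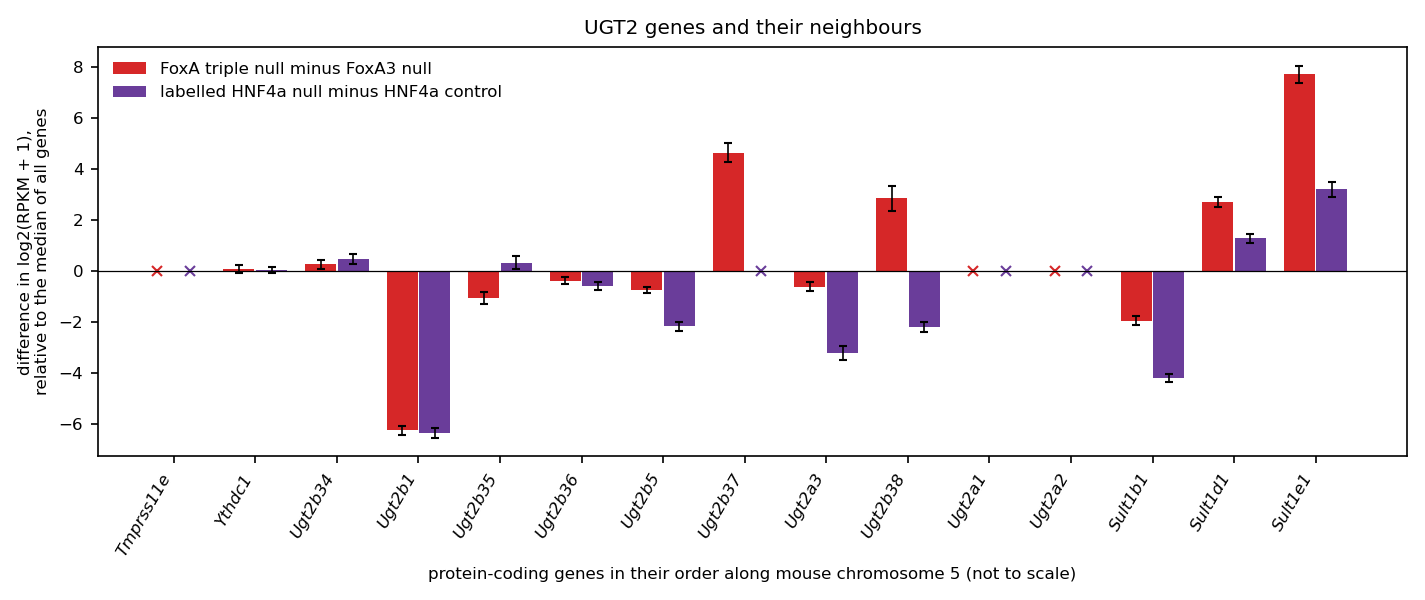
Difference in log2(RPKM + 1), relative to the median of all genes, for the UGT2 genes and their neighbours in their order along the chromosome; bars carry the SE from limma and a cross marks a gene that was not tested. Ugt2b1 fell by 6.24 in triple null and fell by 6.35 in the livers labelled HNF4a null.

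Across the 6 groups the order of levels differed by gene. Ugt2b1 had its highest means in FoxA3 null, lox and control liver, whose neighbours in the order overlapped. The mean was lower in Cre alfp, whose range overlapped lox but not control liver. It was lowest in triple null and the livers labelled HNF4a null, which overlapped each other. Ugt2b34 ran the other way, from the livers labelled HNF4a null (425 ± 88.8 RPKM) through control liver to lox (140 ± 7.13), with overlap between all neighbours from triple null down. Ugt2b36 varied least, from 355 ± 39.5 RPKM in Cre alfp to 677 ± 107 in FoxA3 null, and every pair of neighbours overlapped. Hepatocytes and whole liver were separate sets of libraries, so this order is a description.

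Development was described through the authors' deposited tables, which compare hepatoblasts and newborn hepatocytes with adult hepatocytes. The sources used here do not state which adult libraries entered them, and the values are the authors'. In their deposited table all 8 UGT2 genes were lower in hepatoblasts at an adjusted p under 0.05, against 37.9% of its genes, with log2 fold changes from -5.32 for Ugt2a3 to -11.25 for Ugt2b38. Newborn hepatocytes had 7 of the 8 lower by the same criterion in the authors' deposited table, against 31.7% of its genes.

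Newborn levels set the genes apart. In the authors' deposited table Ugt2b34 differed from adult by -0.10 (authors' SE 0.18, adjusted p = 0.661). In the same deposited table Ugt2b35 was at -1.04 and Ugt2b36 at -1.81, followed by Ugt2b5 at -2.43, Ugt2b1 at -2.49 and Ugt2a3 at -3.49. That deposited table placed Ugt2b37 at -6.51 and Ugt2b38 at -11.44, both with large errors (authors' SE 1.75 and 1.97). The 3 genes closest to the adult level at birth, Ugt2b34, Ugt2b35 and Ugt2b36, were also the 3 tested genes that were not called lower in the livers labelled HNF4a null. That match was seen after the values were known and was not tested.

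The triple null was set against hepatoblasts in another of the authors' deposited tables. There Ugt2b1 differed by 0.08 (authors' SE 0.53, adjusted p = 0.901), an interval of -0.97 to 1.12. In this deposited table the other 7 members were higher in the triple null, by 5.48 for Ugt2a3 to 13.81 for Ugt2b38, against 37.6% of its genes called higher. The median of all genes in that deposited table was -0.20. Among the 8, Ugt2b1 was thus the gene whose triple null level was not separated from that of hepatoblasts.

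**Figure D5:**
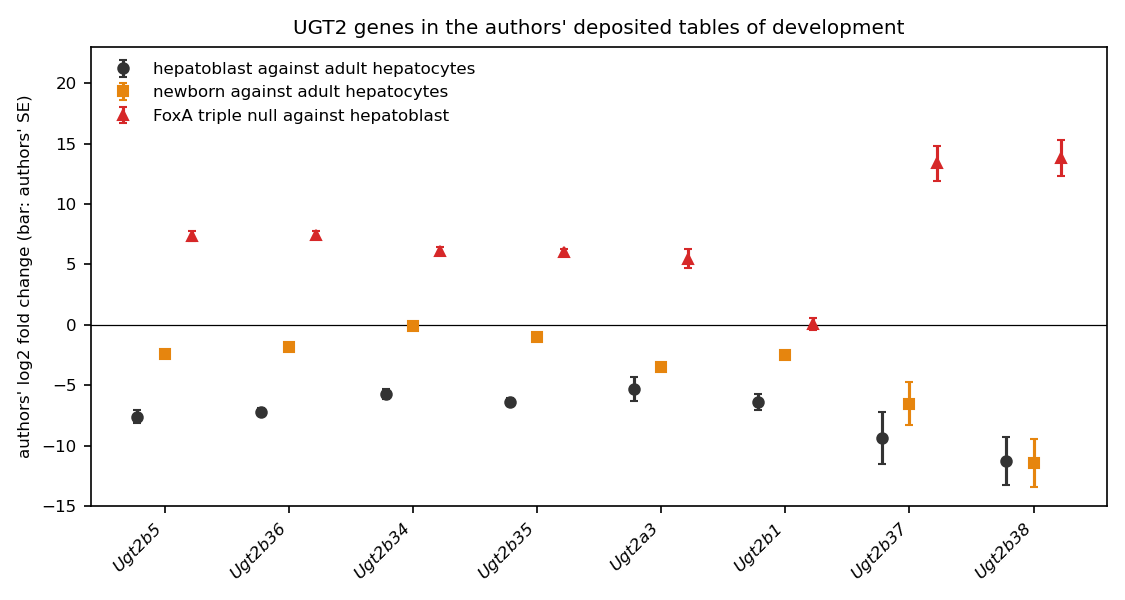
The authors' log2 fold changes of the 8 UGT2 genes, with the authors' SE as bars, for hepatoblasts and newborns against adult hepatocytes and for the triple null against hepatoblasts. Ugt2b34 lies near 0 in newborns, at -0.10, and Ugt2b1 near 0 in the triple null against hepatoblasts, at 0.08.

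Other genes of glucuronidation were taken from a fixed list. Of 14 further UGT genes, 10 could be tested in hepatocytes. In triple null against FoxA3 null 1 was called higher and 0 lower by limma, where 8.11% of all genes were called, and their median difference was 0.16 against 0.05 over all genes. The gene called was Ugt1a5, at 42.7 ± 22.3 RPKM in triple null and 14.6 ± 2.18 in FoxA3 null (log2 difference 1.34). In Cre alfp against lox 1 was called lower, where 2.38% of all genes were called: Ugt1a9, at 18.8 ± 7.06 against 81.3 ± 35.4 RPKM. Between groups that differ in FoxA3 more were called, all higher: 4 of 10 in triple null against lox, 5 against Cre alfp and 3 in FoxA3 null against lox, where 13.5%, 10.3% and 7.19% of all genes were called in either direction. Their median unshifted differences were 0.81, 0.93 and 0.87, against 0.13, 0.13 and 0.10 over all genes. The Ugt1a transcripts differ in their first exon and share the rest, so the division of reads among them is uncertain.

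Of the further UGT genes 8 could be tested in liver, and with HNF4a labelled null 4 were called lower and 1 higher, where 5.95% of all genes were called lower and 14.5% in either direction. Ugt3a2 was 0.815 ± 0.355 against 186 ± 18.2 RPKM and Ugt3a1 was 0.0210 ± 0.0171 against 24.1 ± 1.08. Ugt1a9 and Ugt1a5 also fell, by 2.66 and 4.38 relative to all genes. Ugt1a1, the bilirubin-conjugating enzyme, rose to 614 ± 37.8 from 242 ± 27.7 RPKM.

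Ugdh makes the UDP-glucuronic acid that UGT2 and UGT1 enzymes use. It was the 1 gene called among 3 of cofactor supply in triple null against FoxA3 null, where 8.11% of all genes were called. The same held in Cre alfp against lox (2.38% of all genes) and in the livers labelled HNF4a null (14.5%). Ugdh was 67.3 ± 20.2 RPKM in triple null and 148 ± 57.2 in FoxA3 null (log2 difference -1.08), and 36.3 ± 5.64 in Cre alfp against 86.6 ± 1.29 in lox (-1.24). It rose in the livers labelled HNF4a null to 334 ± 92.6 from 113 ± 8.30 RPKM. Gusb, which hydrolyses glucuronides, and Ces1e, which holds it in the endoplasmic reticulum, both fell in triple null against FoxA3 null, to 3.62 ± 0.461 from 8.50 ± 2.06 RPKM and to 27.3 ± 11.5 from 61.6 ± 10.9. Both were called, where 8.11% of all genes were. In triple null against lox and against Cre alfp no gene of cofactor supply or hydrolysis was called, where 13.5% and 10.3% of all genes were. Ces1e also fell in the livers labelled HNF4a null.

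Abcc3, which exports glucuronides towards blood, fell to 48.7 ± 4.80 from 126 ± 19.2 RPKM in triple null against FoxA3 null and rose to 221 ± 19.2 from 56.4 ± 6.26 in the livers labelled HNF4a null. It was the 1 gene called of 3 tested for export in the first comparison, where 8.11% of all genes were called. In the second, 4 were tested, 1 was called higher and 1 lower, where 14.5% of all genes were called. The gene called lower was Abcg2, which fell to 23.8 ± 2.46 from 51.8 ± 6.48 RPKM. In triple null against lox, where Abcc3 was 85.8 ± 7.87 RPKM, no export gene was called (13.5% of all genes were). Against Cre alfp 1 was called lower (10.3% of all genes were called). Gulo, the last enzyme from glucuronate to ascorbate, fell in the livers labelled HNF4a null to 66.7 ± 4.21 from 142 ± 0.590 RPKM.

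Of 17 tested regulators known for UGT or sex-dependent liver genes, 2 were called lower in the triple null, the deleted Foxa1 and Foxa2. Of all genes 3.95% were called lower in triple null against FoxA3 null. In Cre alfp against lox Nr1i3, the xenobiotic receptor CAR, rose to 332 ± 73.7 from 150 ± 5.64 RPKM. The livers labelled HNF4a null had 3 higher and 4 lower, among them Nr1i3 at 0.882 ± 0.254 against 51.2 ± 3.88 RPKM. Of all genes in that comparison 14.5% were called in either direction and 5.95% lower.

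Some liver genes depend on sex. Of 15 tested genes known as male-biased, 9 were called lower and 2 higher in triple null against FoxA3 null, 7 lower and 1 higher in Cre alfp against lox, and 15 lower in the livers labelled HNF4a null. Of 22 genes known as female-biased, 14 could be tested in hepatocytes and 9 in liver. Of those tested, 5 of 14, 9 of 14 and 8 of 9 were called higher in the same comparisons and 0 lower. The filter partly fixed this direction, since some genes passed it only through a deleted group where they were high. Sult3a1 was 4.49 ± 0.973 RPKM in Cre alfp and 0.00178 ± 0.00308 in lox, and Cyp2b13 was 9.14 ± 5.86 and 0.0964 ± 0.131. No conclusion on direction is drawn from these counts. Among all genes tested the share called in either direction was 8.11%, 2.38% and 14.5%. Ddx3y, on the Y chromosome, was 14.9 to 32.9 RPKM in the 21 libraries and Xist was at most 0.363 RPKM in each of them. The part of the sex-dependent programme in the UGT2 differences was not tested.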

How the data were processed

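RNA was measured in 21 libraries, prepared with the NEB Ultra RNA kit and sequenced on an Illumina HiSeq per the labels' protocols. The authors deposited a matrix of RPKM values; the submitters' processing notes name Cufflinks 2.2.1, SAMtools, DESeq2 and mm9, without stating how reads of near-identical copies were divided. Columns were matched to samples by name, and 9 columns of other values were not used. The authors also deposited log2 fold changes with p-values; in 4 of these tables the header is shifted by 1 field, the table against the undeleted control had its sign turned here, and the unadjusted p-values of the Cre alfp table were adjusted here.

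Values were analysed as log2(RPKM + 1), so fold changes of low genes are understated. Genes had to reach 1 RPKM in 3 of 15 hepatocyte or 2 of 6 liver libraries. limma 3.58.1 (R 4.3.3) with a mean-variance trend was fitted over all groups of a tissue, tested on simulated data first, and p-values were adjusted over all genes tested. All 8 UGT2 genes are named, and other genes come from lists by role or from the neighbouring loci; 1 listed regulator and its motif are not reported here. The members and lists were chosen with earlier results of these data known. Alternatives were other pseudocounts, filters, scalings, variance models, fewer groups, a replicate block and leaving out each library. Promoters came from RefSeq (GRCm38.p6), where all 8 genes matched, and were aligned globally.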

Additional observations from a re-analysis of the deposited data

Results flagged for a closer look

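Of 32 gene-by-group sets of 4 libraries, 2 held a library apart from the other 3 by Dixon's criterion, and chance alone would give about 5% of sets. Ugt2a3 in triple null library 1 was lowest at 99.4 RPKM, with the next library at 111. Ugt2b38 in the liver library TAGCTTA, labelled HNF4a null, was highest at 0.0455 RPKM, with the next at 0.00509, all of them near the lower end of what the matrix lists.

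The effect of deleting Foxa1 and Foxa2 differed with FoxA3 status for 3 UGT2 genes by limma's interaction term. The difference was -5.69 for Ugt2b1 (lower in 4 of 4 triple null libraries than in every FoxA3 null library), 4.84 for Ugt2b37 and 2.33 for Ugt2b38 (both higher in 4 of 4). The limma adjusted p was 9.76e-09, 5.91e-05 and 0.0448. For Ugt2b38 the call was lost in 11 of 15 fits that left out 1 library and in 5 of 7 other settings. FoxA3 status, the route of Cre delivery and any difference in age at deletion cannot be told apart in this term.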

How the results depend on the processing

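Over 873 alternative values for differences of single UGT2 genes, 821 kept their direction and side of the threshold, 19 lost a call and 7 gained one. The other 26 changed sign, in 9 differences that were not called (limma adjusted p of 0.635 or more as reported, and 0.386 or more where the sign changed). With 1 library left out, Cre alfp minus lox ranged from -0.0906 to 0.360 for Ugt2a3, -0.12 to 0.14 for Ugt2b34, -0.0761 to 0.0377 for Ugt2b36, -0.73 to 0.39 for Ugt2b37 and -0.0801 to 1.19 for Ugt2b38. Likewise Ugt2b38 in FoxA3 null minus lox ranged from -0.56 to 0.71, Ugt2b5 and Ugt2b35 in triple null minus lox from -0.135 to 0.0782 and -0.315 to 0.0292, and Ugt2b35 in triple null minus Cre alfp from -0.12 to 0.22. Median scaling gave -0.0171 for Ugt2b34 (Cre alfp minus lox), -0.036 for Ugt2b35 (triple null minus Cre alfp) and -0.0116 for Ugt2b38 (FoxA3 null minus lox). Quantile normalization gave -0.0659 and -0.0091 for these last 2, and 0.0643 for Ugt2b5 (triple null minus lox). The number of UGT2 genes called in FoxA3 null against lox was 0 and ranged from 0 to 3 when 1 library was left out, and without lox library 2 it was 1, without lox library 3 it was 2. In other comparisons the leave-one-out counts of members were 3 to 4 in triple null against FoxA3 null, 2 to 3 for the interaction and 3 to 4 for HNF4a. Leaving out a control liver leaves 1 control, assumed to vary like the other group.

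Over all genes, 1303 were called in FoxA3 null against lox with a pseudocount of 0.1 in place of 827. In Cre alfp against lox 182 were called with only those groups fitted in place of 274, and 177 to 284 when 1 library was left out, the lowest without lox library 1. The causes were not tested. Median scaling moved the share of called genes that were lower from 42.9% to 53.3% (triple null against lox), from 48.9% to 60.1% (triple null against Cre alfp), from 49.5% to 62.6% (FoxA3 null against lox) and from 41.0% to 63.3% (HNF4a).

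Replicate numbers did not pair the hepatocyte libraries: same-numbered libraries had correlated deviations of -0.36 to 0.17. With the replicate block 919 genes were called in triple null against FoxA3 null in place of 933, 229 in Cre alfp against lox in place of 274, and 2 UGT2 genes for the interaction in place of 3, Ugt2b38 having 2.21 (limma adjusted p = 0.0653). With the block Ugt2b34 in Cre alfp minus lox was -0.0168. No paired analysis was possible for the livers because their columns carry barcodes and no replicate numbers. Ugt2b37 in liver, tested without the filter, differed by -0.89 (limma adjusted p = 0.0513). Absolute depth is unknown, which limits what can be said of Ugt2b37 and Ugt2b38 in liver.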

Other observations

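For each UGT2 gene the genes with the most similar profile over the 15 hepatocyte libraries were listed by Pearson's r of log2(RPKM + 1), as a description, since the libraries share the same 4 groups. Ugt2b1 was closest to Serpina10 (0.992), a gene for an inhibitor of clotting proteases, to Mug2 (0.991) and to C8b (0.989), a gene of the terminal complement pathway. C8b was 148 ± 15.0 RPKM in FoxA3 null and 2.13 ± 0.127 in triple null (SD, n = 4 each). Ugt2b37 was closest to Spink3 (0.968), Cd14 (0.961) and Anxa2 (0.961), and Ugt2b38 to Pdrg1 (0.940). Ugt2b5 was closest to Ephx1 (0.944), the gene of microsomal epoxide hydrolase.

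Within the family, r was -0.950 between Ugt2b1 and Ugt2b37, 0.948 between Ugt2b37 and Ugt2b38, and 0.956 between Ugt2b5 and Ugt2b35. In the triple null libraries Ugt2b1 was lowest and Ugt2b37 highest of the 4 groups.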
